A study of Mus musculus with 29 samples.

Results

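The 40 genes described here code for transcription factors that specify brain regions other than the telencephalon, or other organs. They were taken as a list of names, drawn up with earlier results of these data known: members of the Pax, Gata, Irx, Tbx, Nkx, En, Gbx, Bar, Hand, Foxa and Cdx families together with Six2, Otp, Isl1, Lmx1b, Evx1 and Gsc. All 40 were found in both deposited gene tables, among 38355 genes in the untreated experiment and 48709 genes in the treated experiment, and among the 21951 protein-coding genes of the annotation. By their best known roles, 8 belong to the midbrain and hindbrain, 10 to the spinal cord and ventral neural tube, and 5 to the diencephalon and patterned neural plate. Another 7 belong to the heart and lateral mesoderm, 6 to mesenchyme, kidney and limb, and 4 to blood, ear, gut or the organiser.

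In the forebrain such lineage regulators are held silent by Polycomb. Polycomb repressive complex 2 (PRC2) places trimethylation on lysine 27 of histone H3 (H3K27me3), and broad domains of this mark typically cover the CpG-rich promoters and bodies of silent developmental genes. BAF (mSWI/SNF) complexes are ATP-dependent chromatin remodellers that oppose Polycomb at many loci. BAF155 and BAF170, encoded by Smarcc1 and Smarcc2, are core scaffold subunits of these complexes.

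The study asked what the late developing cortex becomes without BAF155 and BAF170, and whether inhibition of Wnt signalling alters that outcome. All samples were embryonic cortex of C57BL/6J mice at E17.5, late in cortical neurogenesis. In the first RNA experiment 4 untreated libraries with the letter C and 3 with the letter M were sequenced. In the second, 4 wild-type (WT) vehicle libraries, 4 BAF dcKO_hGFAP-Cre vehicle libraries and 4 BAF dcKO_hGFAP-Cre libraries with a Wnt inhibitor (WNTi, the compound ICG-001 injected into the pregnant mother) were sequenced, and H3K27me3 peak lists came from 4 libraries with the letter C and 4 with the letter K.

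The double conditional knockout (dcKO) removes both genes only in cells in which the human GFAP promoter has driven Cre, that is in radial glia of the pallium and their later progeny. The dissected tissue therefore still held cells that kept both genes, among them vessels, meninges, blood and neurons born earlier. The genotype label of the untreated and the H3K27me3 libraries reads dcKO for every one of them, so their groups rest on the letter in the sample title. C is read as control and M or K as dcKO. Since all RNA came from whole tissue, fewer cells of a type and less RNA per cell cannot be told apart in any result here.

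Depth was 22509306 to 28391046 assigned reads in the untreated libraries, except 11946658 in M 2, and 12514443 to 26600594 in the treated libraries. The deleted gene was examined first. Smarcc1 stood at 247, 264, 269 and 248 CPM (read counts scaled to library size, after TMM scaling) in C 1 to C 4, at 128 and 135 CPM in M 3 and M 4, and at 245 CPM in M 2. It stood at 245 to 299 CPM in the WT vehicle libraries, at 133 to 138 CPM in dcKO vehicle 1, 3 and 4, and at 242 CPM in dcKO vehicle 2. The WNTi libraries 1 to 4 held 214, 252, 140 and 173 CPM. The libraries labelled M 2, dcKO vehicle 2 and WNTi 2 thus held Smarcc1 at the control level, and the results below that turn on these libraries are given with and without them. WNTi 1 and WNTi 4 stood between the levels of dcKO vehicle 1, 3 and 4 and of WT vehicle. They were kept where WNTi 2 was left out, so that group was still uneven in Smarcc1. In the C, M and vehicle libraries Smarcc2 followed the same pattern. It stood at 654 to 714 CPM in C, 670 CPM in M 2 and 398 to 399 CPM in M 3 and M 4. It stood at 664 to 834 CPM in WT vehicle, 692 CPM in dcKO vehicle 2 and 425 to 439 CPM in dcKO vehicle 1, 3 and 4. Its log2 fold change was -0.48 in M against C (adjusted p = 0.252, edgeR) and -0.77 without M 2 (adjusted p = 8.00e-05, edgeR). The labelled tissue held its defining genes: a list of 40 telencephalic transcription factors summed to 1.19e+03 to 1.69e+03 RPKM (the same per kilobase of exon) in the control libraries, with no defining marker at 0. In M 3 and M 4 that sum was 925 to 1.01e+03 RPKM, and in dcKO vehicle 1, 3 and 4 it was 885 to 1.10e+03 RPKM. Same-numbered libraries of the 2 RNA experiments resembled each other: in 6 of 7 untreated libraries the deviation from the group mean over 15220 genes correlated best with the same-numbered treated library. The 2 RNA experiments are therefore not treated as independent of each other.

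The promoter stretches of 5 members are shown because the RNA and H3K27me3 results below turn on them, or because they mark the ends of the range of CpG content. They are the bases upstream of the transcription start in RefSeq on GRCm38.p6, written 5′ to 3′ on the strand of the gene, and capitals mark each CpG dinucleotide. Isl1 lies at chr13:116309690-116309938 on the minus strand, and the whole stretch or part of it lay under an H3K27me3 peak in 8 of 8 libraries. Gbx2 lies at chr1:89931180-89931426 (minus strand, 7 libraries), Gata2 at chr6:88193641-88193890 (plus strand, 7 libraries), Barhl2 at chr5:106458167-106458416 (minus strand, 6 libraries) and Foxa2 at chr2:148046970-148047219 (minus strand, 5 libraries).
Isl1: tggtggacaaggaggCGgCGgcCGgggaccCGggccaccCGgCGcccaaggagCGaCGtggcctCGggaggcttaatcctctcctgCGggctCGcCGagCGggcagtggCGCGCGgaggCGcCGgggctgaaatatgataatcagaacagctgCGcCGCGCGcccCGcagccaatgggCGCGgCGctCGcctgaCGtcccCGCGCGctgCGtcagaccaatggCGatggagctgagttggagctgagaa
Gbx2: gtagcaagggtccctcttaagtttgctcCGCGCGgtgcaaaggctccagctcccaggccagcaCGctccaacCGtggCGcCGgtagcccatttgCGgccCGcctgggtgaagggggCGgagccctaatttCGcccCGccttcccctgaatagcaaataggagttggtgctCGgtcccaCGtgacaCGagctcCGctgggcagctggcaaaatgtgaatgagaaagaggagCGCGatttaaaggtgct
Gata2: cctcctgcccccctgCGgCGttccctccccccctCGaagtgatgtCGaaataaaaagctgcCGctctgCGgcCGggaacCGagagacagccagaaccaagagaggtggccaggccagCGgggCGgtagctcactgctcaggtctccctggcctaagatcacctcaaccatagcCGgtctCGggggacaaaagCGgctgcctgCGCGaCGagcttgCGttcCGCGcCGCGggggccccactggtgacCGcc
Barhl2: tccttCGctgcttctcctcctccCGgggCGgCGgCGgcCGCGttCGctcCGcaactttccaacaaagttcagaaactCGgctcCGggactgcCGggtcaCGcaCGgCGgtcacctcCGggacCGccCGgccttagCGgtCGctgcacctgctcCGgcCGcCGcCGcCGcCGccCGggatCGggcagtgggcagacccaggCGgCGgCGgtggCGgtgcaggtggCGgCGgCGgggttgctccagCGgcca
Foxa2: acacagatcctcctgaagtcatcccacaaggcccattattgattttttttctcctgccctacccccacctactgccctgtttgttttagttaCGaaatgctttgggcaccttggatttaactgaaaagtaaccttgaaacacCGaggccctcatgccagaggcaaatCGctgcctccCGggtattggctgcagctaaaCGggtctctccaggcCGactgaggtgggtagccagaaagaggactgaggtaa
The Barhl2 stretch holds 36 CpG dinucleotides, the most of the members matched to a promoter, and the Foxa2 stretch 6, the fewest together with that of Pax8. Isl1 holds 33, Gata2 22 and Gbx2 18. A RefSeq promoter was matched for 29 of the 40 members. In the 250 bases upstream of the start their median was 19 CpG dinucleotides and 60.8% G and C, against 6 and 52.0% over the 27025 genes of the table. At least 15 CpG dinucleotides were present in 19 of these 29 members and in 27.5% of all genes. All 29 stretches lay under a peak in at least 4 libraries, against 7.48% of all, and 6 did so in all 8 libraries, against 0.263%.

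The members were marked by H3K27me3 in the control cortex and in the dcKO cortex. A gene was counted as marked when a peak overlapped its body or the 2 kb either side of its start. By this measure 36 of the 40 members carried a peak in all 8 libraries (90%), against 4.82% of all 21951 protein-coding genes. The other 4 members, Hand2, Tbx20, Gsc and Irx2, lacked a peak in 1 library each, which was K 2 for all 4. Among 40 telencephalic transcription factors, which act in this tissue, 14 (35%) carried a peak in all 8 libraries. Among 32 family paralogues of the members 20 did (62.5%), and among 33 genes for PRC2, PRC1 and H3K27 demethylases 4 did (12.1%).

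The domains were wide. The mean share of the window inside peaks exceeded 50% in controls for 27 of the 40 members and for 342 of 21173 protein-coding genes (1.62%). Ranked by covered bases among protein-coding genes, the members ran from percentile 94.3 (Gsc, the homeobox gene of the gastrula organiser) to percentile 99.9 (Pax3, a regulator of dorsal neural tube, neural crest and muscle). The widest single peak over a member was 87004 bp at Pax3 in C 4, at chr1:78134725-78221728 on mm10. In C 2 a single peak of 23631 bp at chr13:116292617-116316247 spanned all of Isl1, and 1 of 32511 bp at chr1:89915933-89948443 spanned all of Gbx2. Six2, a regulator of nephron progenitors, was the member with the highest share covered, 88.7% of its window in controls and 85.0% in K. The lowest shares were at 3 members with long genes: Tbx20 at 12.02% and 10.2%, Pax5 at 11.9% and 13.7%, and Pax8 at 12.8% and 15.03%.

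**Figure D1:**
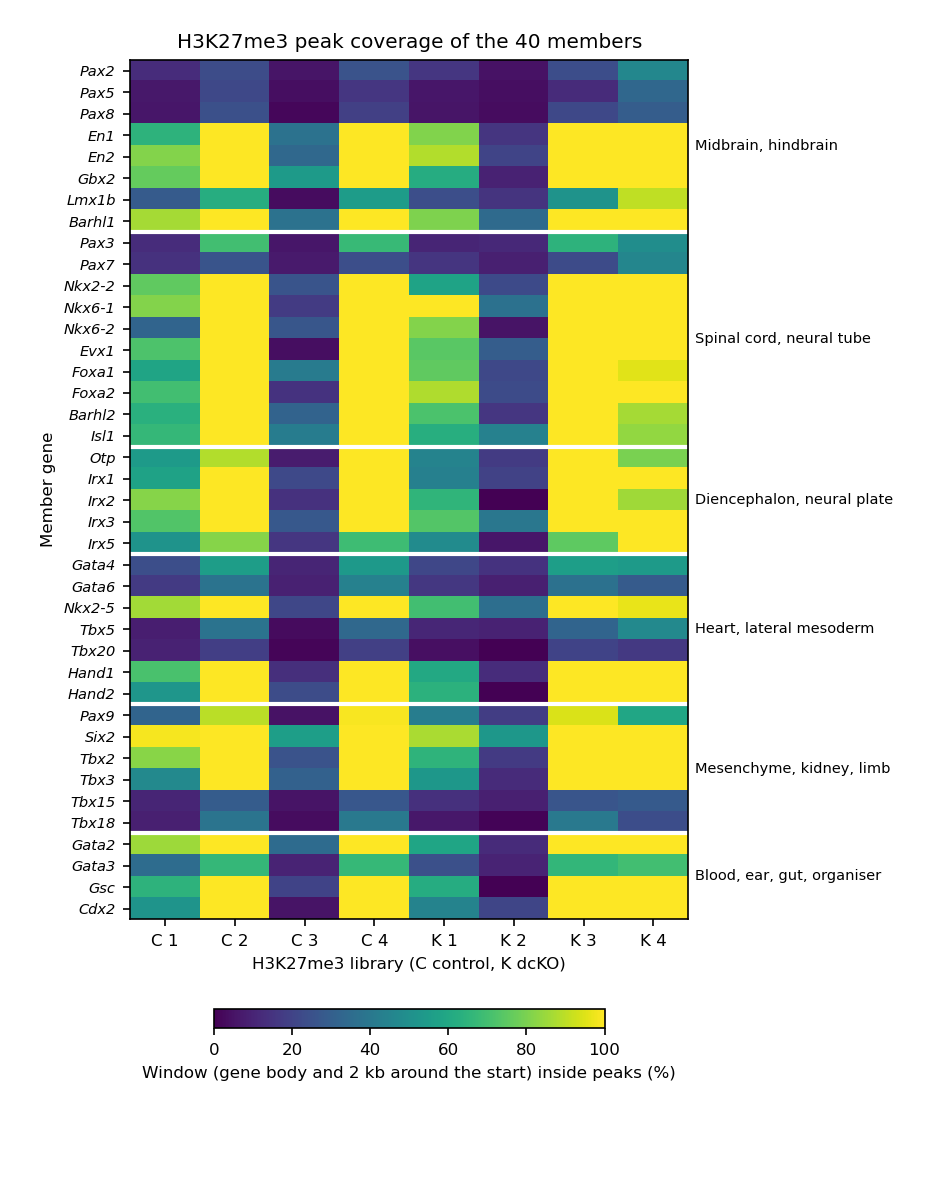
Share of each member's window (gene body and 2 kb around the start) inside H3K27me3 peaks, in percent, for the 40 members in rows ordered by role and the 8 libraries in columns. Most members are covered from end to end, or nearly so, in C 2, C 4, K 3 and K 4, and in part in the other libraries.

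By role, the spinal cord and ventral neural tube group was covered most, with a median of 72.6% of the window over its 10 members and a range of 20.6% to 79.5%. The diencephalic and neural plate group had a median of 67.9% (55.9% to 76.6%), and the blood, ear, gut and organiser group 66.8% (43.7% to 73.9%). The mesenchyme, kidney and limb group had 61.5% (18.7% to 86.8%) and the midbrain and hindbrain group 58.0% (12.8% to 79.9%). The heart and lateral mesoderm group was covered least, with a median of 36.3% and a range of 11.1% to 76.3%. The ranges of all 6 groups overlapped. The share also depends on the length of the window, which ran from 4122 bp at Gsc to 187731 bp at Pax5. In C 2, 41627 bp of the Gata4 window lay inside peaks, 55.7% of it, and 6881 bp of the Evx1 window, 100% of it. The part of window length in the order of the groups was not tested.

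The width of these domains differed more between libraries than between C and K. The median share of a member's window inside peaks was 56.2%, 100%, 15.3% and 100% in C 1 to C 4 and 58.6%, 13.6%, 100% and 98.4% in K 1 to K 4. The start site lay inside a peak for 36, 40, 19 and 40 members in C 1 to C 4 and for 37, 12, 40 and 39 members in K 1 to K 4. The share of tags left after duplicates were removed was 13.7%, 61.5%, 12.3% and 62.2% in C and 16%, 18%, 66.5% and 32.8% in K. Every library in which the median member was covered by over 90% had kept over 30% of its tags, and the part of the tag share in the result was not tested. Gata2, a regulator of blood and of midbrain GABAergic neurons, shows the pattern: its window was covered by 85.2%, 100%, 34.9% and 100% in C and by 58.9%, 12.3%, 100% and 100% in K. In both groups the libraries thus ran from a small part of the gene to the whole of it.

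The height of the mark at the members did not pass the test between K and C. The fold enrichment over input of a member's highest peak had a median over members of 9.93, 6.44, 5.39 and 5.92 in C 1 to C 4, and of 9.42, 6.11, 6.46 and 10.02 in K 1 to K 4. The same median over all marked protein-coding genes was 4.02 to 5.28. With limma on the log2 of this value over 11742 genes, 0 genes had an adjusted p under 0.05 (0% of those tested). At an unadjusted p under 0.05, 46 genes (0.392%) but 0 of the 40 members passed, and at 0.01, 6 genes (0.0511%) and 0 members. The median log2 difference, K minus C, was 0.23 over the members, with 35 of 40 above 0, beside 0.16 over all genes tested, of which 68.5% were above 0. All libraries of a letter shared a single input, so a difference between the inputs cannot be told apart from a difference between K and C.

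The 3 members with the smallest p were Gata2, Hand2 and Tbx2. Gata2 had a fold enrichment of 14.55, 6.45, 8.47 and 5.91 in C and of 22.6, 9.81, 6.45 and 12.2 in K. Hand2, a regulator of heart ventricle and limb bud, had 13.2, 6.88, 4.04 and 6.46 in C and 8.11, no peak, 6.76 and 8.76 in K. Tbx2, a T-box repressor of limb, heart and eye, had 11.95, 6.63, 6.39 and 6.19 in C and 18.9, 5.73, 6.74 and 11.1 in K. The groups overlapped at all 3. The log2 differences were 0.47 (unadjusted p = 0.187), -0.58 (0.333) and 0.34 (0.408), each with an adjusted p of 0.999995 by limma. Without K 2 the difference of Hand2 was 0.17. With the covered bases in place of the fold enrichment, Gata2 was at -0.49, Tbx2 at -0.22 and the median over members at -0.07, so the sign depended on which property of the peak was taken.

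RNA of the members was scarce. Evx1, a regulator of spinal interneurons, had 0 reads in all 19 RNA libraries, and 20 of the 40 members had under 10 reads in every library. Only 6 members reached 50 reads in some library and 4 reached 100 (Isl1, Barhl2, Otp and Tbx2). All members together took 9.12 to 68.3 CPM in a library, and 6 to 19 members were at 0 reads in a given library. The median control level was 0.0118 RPKM over the members and 1.76 RPKM over all protein-coding genes. At least 1 RPKM was reached by 3.75% of members in C, 3.33% in M, 7.5% in WT vehicle, 7.5% in dcKO vehicle and 8.125% in WNTi, as a mean over the libraries of a group, against 53.5% to 54.6% of protein-coding genes.

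**Figure D2:**
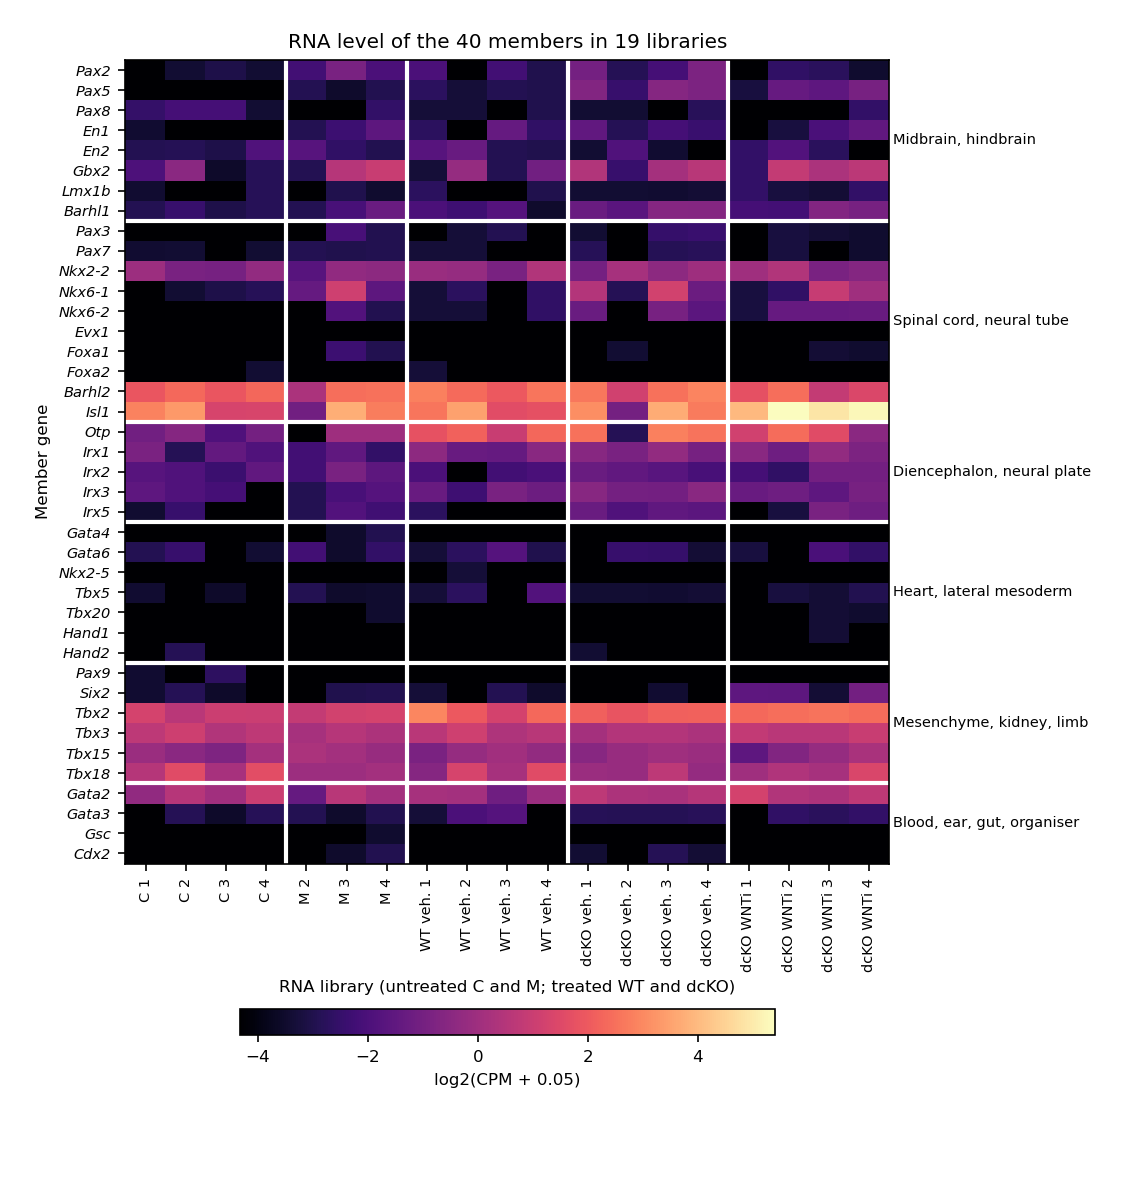
RNA level of the 40 members in 19 libraries, as log2 of CPM with a small constant added (colour scale), with members in rows by role and libraries in columns by group. Most members are near the bottom of the scale in every library, and Barhl2, Isl1 and Tbx2 stand well above it in most libraries of every group.

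The heart and lateral mesoderm group was the most silent, with 23 reads over 7 untreated libraries and 45 over 12 treated libraries for its 7 members. Gata4, the cardiac zinc finger factor, had 0 reads in C and 0, 1 and 2 reads in M 2, M 3 and M 4. Nkx2-5, the cardiac homeobox gene, had 1 read in all, in WT vehicle 2, and Hand1, of extraembryonic and cardiac mesoderm, had 1 read in all, in WNTi 3. By contrast the spinal cord and ventral neural tube group had 1960 and 5258 reads, most of which were from Isl1 and Barhl2.

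The members with the highest levels per length in C were Barhl2 at 1.86 ± 0.34 RPKM (SD, n = 4) and Isl1 at 1.41 ± 0.94 RPKM. Tbx2 followed at 0.546 ± 0.101 RPKM, Tbx18 at 0.454 ± 0.222 RPKM and Tbx3 at 0.2499 ± 0.048 RPKM. In WT vehicle the order was Barhl2 at 2.39 ± 0.60 RPKM, Isl1 at 1.49 ± 0.96 RPKM, Tbx2 at 1.30 ± 0.61 RPKM, Otp at 1.28 ± 0.47 RPKM and Tbx18 at 0.376 ± 0.234 RPKM. Otp stood at only 0.148 ± 0.058 RPKM in C, and Tbx2 too was lower in C than in WT vehicle. These gaps between the controls of the 2 experiments were not tested. In both experiments the levels of Barhl2 and Isl1 differed by less than the SD of Isl1. Of the members whose window was covered over 50% in the H3K27me3 controls, Barhl2 and Isl1 had a mean of at least 1 RPKM in C, and these and Tbx2 and Otp did in WT vehicle. Tbx2 was covered by 77.0% and Otp by 62.7%. Isl1 is a LIM homeobox gene of motor and sensory neurons that is also made by striatal projection neurons, so for this member a source inside the telencephalon is known. Over the 40 members Spearman's rho between control RPKM and percent covered was 0.336, a description over genes that share the same libraries and differ in window length.

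**Figure D3:**
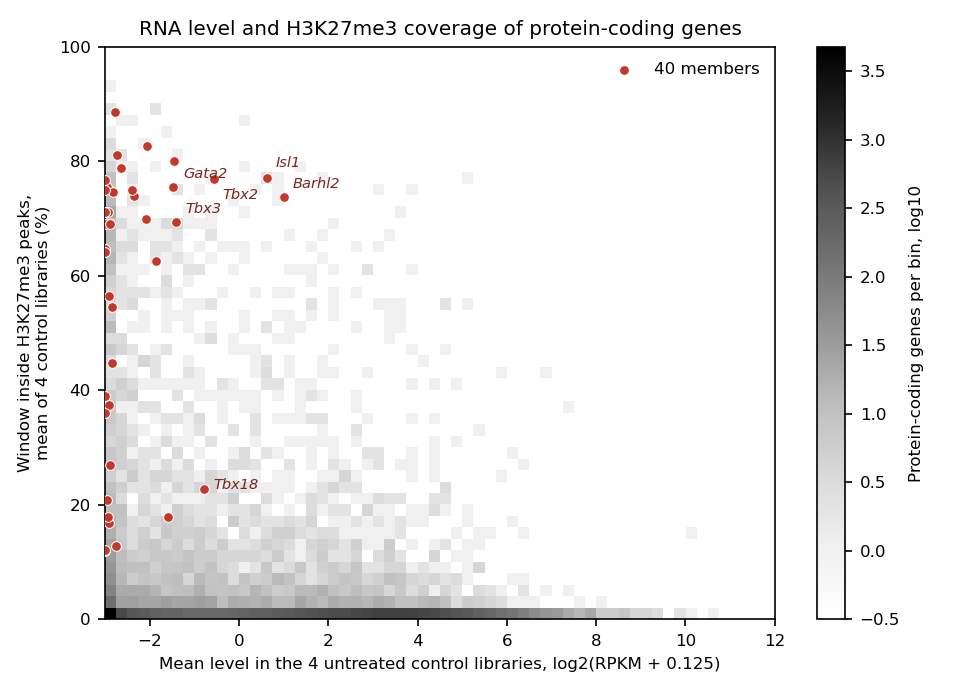
Mean control RNA level (x axis, log2 of RPKM with a constant added) against the mean share of the window inside H3K27me3 peaks in the 4 control libraries (y axis, percent), for protein-coding genes as grey density and the 40 members as red points. The members sit at the left, at low RNA, and 27 of them lie above 50%.

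In untreated M against C no member passed the adjusted threshold. Of the 40 members 10 had enough reads to be tested, among 15770 genes. With edgeR's quasi-likelihood test 0 members and 1 gene in all (0.00634% of those tested) had an adjusted p under 0.05, 0 members and 5.46% of genes had an unadjusted p under 0.01, and 2 members and 16% of genes had an unadjusted p under 0.05. DESeq2 called 0 members as well, and 2.12% of its 26053 genes. The median log2 fold change over the 10 tested members was 0.07 beside 0.00 over all genes tested, and 6 of 10 were above 0.

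Gbx2, which positions the midbrain-hindbrain boundary and marks thalamic neurons, had 5, 15, 1 and 2 reads in C 1 to C 4 and 1, 37 and 47 reads in M 2, M 3 and M 4. M 3 and M 4 stood above every C library, and M 2 stood among them. The level was 0.2502 ± 0.286 CPM in C (n = 4) and 1.13 ± 0.938 CPM in M (n = 3), a log2 fold change of 2.34 ± 0.85 (SE) with an adjusted p of 0.248 by edgeR's quasi-likelihood test. Without M 2 the change was 2.75 ± 0.61 with an adjusted p of 0.019, in a fit that called 12.4% of 16024 genes. Gbx2 had few reads in C 1, C 3 and C 4 and passed the filter on low counts mainly through M 3 and M 4, where it was high. With C 2 left out it did not pass the filter and was not tested. Gbx2 shares exon bases with D130058E05Rik on the other strand, and the library kit does not mark strand, so reads of the pair cannot be told apart. A list of 8 thalamic markers that does not hold Gbx2 summed to 44.9 to 52.8 RPKM in C, to 68.6 to 69.0 RPKM in M 3 and M 4 and to 47.5 RPKM in M 2. A list of subpallial and striatal markers was also highest in M 3 and M 4, at 129 to 136 RPKM, against 73.5 to 94.9 RPKM in C and 63.1 RPKM in M 2. The part of either list in the result was not tested.

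Tbx18, a T-box gene of pericytes, epicardium and limb mesenchyme, was the one member with every M library below every C library. It had 1.39, 2.97, 1.10 and 3.12 CPM in C and 0.923, 0.909 and 1.01 CPM in M 2, M 3 and M 4. The log2 fold change was -1.16 ± 0.41 with an unadjusted p of 0.0183 and an adjusted p of 0.221 by edgeR's quasi-likelihood test. Such a downward separation was found in 1 of 37 members with a read and in 4.62% of all genes. The 9 meningeal fibroblast markers tested all had log2 fold changes under 0 in M, with a median of -0.91 and summed levels of 10.4 to 18.46 RPKM in C against 8.86 to 12.6 RPKM in M, while 7 pericyte markers summed to 45.3 to 53.1 RPKM in C and 40.6 to 47.6 RPKM in M. Their part in the Tbx18 values was not tested. Tbx18 and Tbx3 share exon bases with D030062O11Rik and Tbx3os1 on the other strand, as Nkx6-2 does with Inpp5a, and these reads cannot be told apart either. Tbx3, a T-box gene of limb and mammary development, had a log2 fold change of -0.40 ± 0.23 (adjusted p = 0.429, edgeR).

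Every M library stood above every C library for 5 of 37 members, En1, Nkx6-1, Pax2, Pax5 and Pax7, against 5% of all genes with a read. Without M 2 this held for 15 members, against 14.3% of genes, while Tbx18 was still the 1 member with every M library lower, against 12.8%. These members had few reads. Nkx6-1, of ventral spinal and pancreatic progenitors, had 0, 1, 2 and 2 reads in C and 4, 56 and 7 in M 2, M 3 and M 4. Most of its M reads thus came from M 3. For its depth, 11946658 assigned reads against 24393714 in M 4, M 2 did not stand below M 4. The summed reads, 67 against 5, gave a ratio, after the same scaling for depth, of 20.5 (95% interval 8.37 to 65.3), and 23.8 (9.67 to 75.8) without M 2. All such intervals cover counting error only, not the spread between libraries.

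Pax2, of the midbrain-hindbrain boundary, kidney and inner ear, had 0, 1, 2 and 1 reads in C and 2, 13 and 5 in M, a ratio of 7.66 (2.57 to 30.8), and 8.50 (2.80 to 34.5) without M 2. En1, of the same boundary, had 1 read in C 1, none in the other C libraries and 1, 4 and 7 in M, a ratio of 18.4 (2.72 to 786), and 20.8 (3.02 to 894) without M 2. Both had their lowest count of the 3 M libraries in M 2, which also had the lowest depth of the 3. Members without a read in C had at most 8 reads in M. Nkx6-2, of ventral spinal progenitors and oligodendrocytes, had 8, Pax3 had 7 and Foxa1, of endoderm and floor plate, had 6. Set against a floor of 3 reads over the C group, these were 4.08-fold, 3.57-fold and 3.06-fold higher. The 3 values take the reads in M as exact, so they are not lower limits. With M 2 left out and no filter on low counts, 6 of 37 members passed an adjusted p under 0.05 by edgeR's quasi-likelihood test, all of them higher, in a fit that called 3.97% of 25938 genes as higher. They were Gbx2 (adjusted p = 0.0299), Pax2 (0.0111), En1 (0.0187), Nkx6-2 (0.0238), Nkx6-1 (0.0312) and Pax3 (0.0363). With M 2 kept and no filter, 0 members passed.

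**Figure D4:**
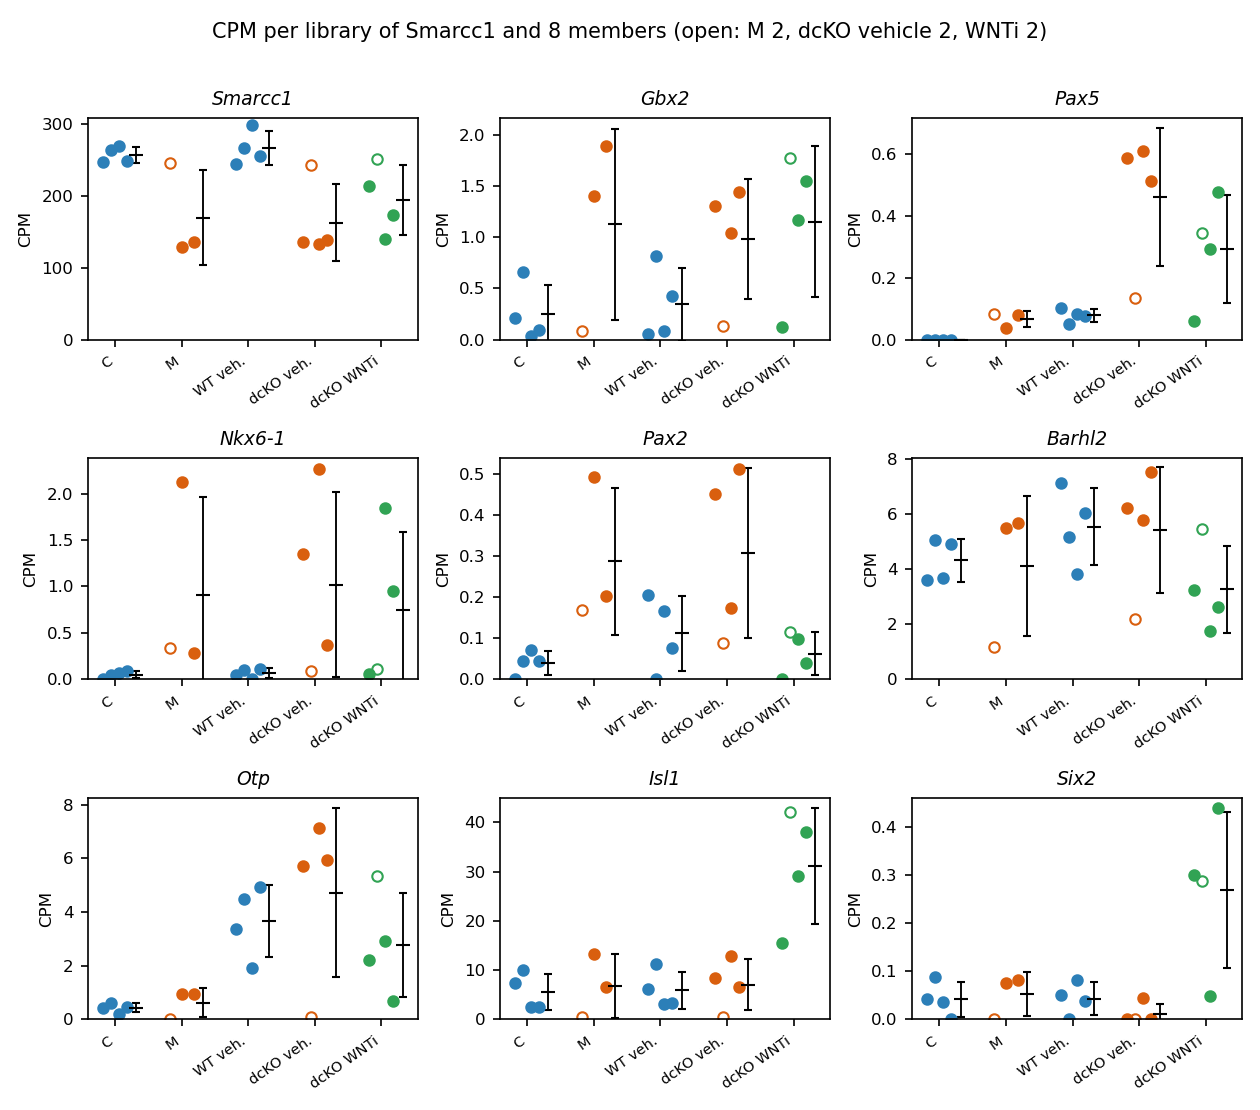
CPM per library for Smarcc1 and 8 members in the 5 RNA groups (C, M, WT vehicle, dcKO vehicle, WNTi), with 1 point per library and black bars for mean and SD, and with M 2, dcKO vehicle 2 and WNTi 2 drawn as open points. The open points lie at the control level of Smarcc1, and Isl1 is highest in the WNTi libraries, at 15.5 to 42.0 CPM.

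In dcKO vehicle against WT vehicle again no member passed the adjusted threshold. Of the 40 members 15 were tested, among 16372 genes, and 0 members and 1 gene (0.00611%) had an adjusted p under 0.05 by edgeR's quasi-likelihood test. DESeq2 also called 0 members, and 0.377% of its 31304 genes. At an unadjusted p under 0.01, 2 members and 2.85% of genes passed, and at 0.05 3 members and 9.46% of genes did. The median log2 fold change was 0.25 over the tested members, 10 of 15 above 0, and -0.00 over all genes tested. The members with the smallest p, Pax5, Nkx6-1 and Barhl1, had few reads in WT vehicle and passed the filter on low counts through the dcKO libraries. With only these 2 groups in the fit, 11 members were tested and 0 passed either unadjusted limit. The median was then 0.13, with 6 above 0.

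Pax5, a regulator of the midbrain-hindbrain region and of B cells, had 2, 1, 1 and 2 reads in WT vehicle and 13, 3, 14 and 11 in dcKO vehicle. Every dcKO library stood above every WT library, and vehicle 2 was the lowest. Levels were 0.0784 ± 0.0211 and 0.461 ± 0.222 CPM (n = 4 each), and the log2 fold change was 2.47 ± 0.63 with an unadjusted p of 0.0016 and an adjusted p of 0.248 by edgeR's quasi-likelihood test. Without vehicle 2 it was 2.78 ± 0.53 with an adjusted p of 0.0138, in a fit that called 3.4% of 16526 genes, and with no filter on low counts it was the 1 member of 36 called, in a fit that called 1.91% of 31069 genes. Pax5 shares exon bases with Gm12462 and 5730488B01Rik on the other strand, whose reads cannot be told from its own.

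Nkx6-1 had 1, 2, 0 and 3 reads in WT vehicle and 30, 2, 52 and 8 in dcKO vehicle. Vehicle 2 stood within the WT range and the other 3 dcKO libraries above it. The log2 fold change was 3.63 ± 1.18 (unadjusted p = 0.00865, adjusted p = 0.338, edgeR) and, without vehicle 2, 4.01 with an adjusted p of 0.0566. Barhl1, of cerebellar granule cells and the inner ear, had 4, 3, 3 and 1 reads in WT vehicle and 8, 6, 14 and 13 in dcKO vehicle, all above WT. Its log2 fold change was 1.62 ± 0.55 (unadjusted p = 0.0112, adjusted p = 0.364, edgeR). In the fit without vehicle 2 and with no filter on low counts it was 1.81 with an adjusted p of 0.109 (edgeR).

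Upward separation of the groups was found in 4 of 34 members with a read, Barhl1, Gata2, Irx5 and Pax5, against 2.23% of genes, and downward separation in 0, against 1.82%. Without vehicle 2 the counts were 10 of 33 upward, against 6.43%, and 1 downward, En2, against 5.93%. Irx5, an Iroquois gene of heart, retina and neural plate, had 26 reads in dcKO vehicle and 2 in WT vehicle, a ratio of 11.2 (2.81 to 97.7), and 12.1 (2.97 to 107) without vehicle 2. Gata2 had 1.07, 1.02, 0.413 and 0.891 CPM in WT vehicle and 1.58, 1.20, 1.13 and 1.40 CPM in dcKO vehicle (adjusted p = 0.546, edgeR, and 0.396 without vehicle 2). Gbx2 had 1, 16, 1 and 11 reads in WT vehicle and 29, 3, 24 and 31 in dcKO vehicle, again with vehicle 2 at the WT level (adjusted p = 0.620, edgeR, and 0.232 without vehicle 2). Thalamic markers summed to 44.1 to 51.1 RPKM in WT vehicle, 59.9 to 63.9 RPKM in dcKO vehicle 1, 3 and 4 and 40.003 RPKM in vehicle 2. Subpallial and striatal markers summed to 83.8 to 112 RPKM, 151 to 159 RPKM and 74.7 RPKM in the same libraries. The part of either list in these values was not tested.

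The Wnt inhibitor comparisons share their dcKO and WT libraries with the comparison above and with each other. In WNTi against dcKO vehicle 0 of 15 tested members and 9 of 16372 genes (0.055%) had an adjusted p under 0.05 by edgeR's quasi-likelihood test, 1 member and 4.65% of genes had an unadjusted p under 0.01, and 1 member and 15.8% of genes had one under 0.05. In WNTi against WT vehicle 0 members and 16 genes (0.0977%) passed the adjusted threshold, 2 members and 6.72% of genes the unadjusted one at 0.01, and 5 members and 19.8% of genes that at 0.05. DESeq2 called 0 members and 1.05% of 31304 genes in the first comparison. In the second it called 2 members, Isl1 (adjusted p = 0.0408) and Nkx6-1 (0.0494), and 2.52% of genes. The median log2 fold changes over the tested members were -0.01 and 0.17, each beside 0.01 over all genes. With only the 2 groups in the fit they were 0.02 over 14 tested members and 0.07 over 11. At an unadjusted p under 0.01 and 0.05 (edgeR), 1 and 2 members passed in the first of these fits, and 1 and 4 in the second. The 5 members given above for WNTi against WT vehicle included Pax5, Nkx6-1 and Barhl1, which passed the filter on low counts through the dcKO libraries.

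Isl1 reached the highest level per length of any member in any group, 7.87 ± 2.97 RPKM in WNTi. It had 119, 219, 37 and 84 reads in WT vehicle, 187, 10, 295 and 139 in dcKO vehicle and 260, 732, 598 and 955 in WNTi. In CPM these were 6.09, 11.2, 3.06 and 3.25, then 8.43, 0.445, 12.9 and 6.48, then 15.5, 42.0, 29.1 and 38.1. Every WNTi library stood above every library of both other groups, and dcKO vehicle 2 was the lowest of all. Group levels were 5.90 ± 3.80, 7.05 ± 5.15 and 31.2 ± 11.7 CPM (n = 4 each). The log2 fold change was 2.14 ± 0.62 against dcKO vehicle (unadjusted p = 0.00423, adjusted p = 0.185) and 2.39 ± 0.64 against WT vehicle (unadjusted p = 0.00226, adjusted p = 0.0968), both by edgeR's quasi-likelihood test. Without dcKO vehicle 2 the first was 1.75 (adjusted p = 0.0671), and without WNTi 2 the second was 2.21 (adjusted p = 0.063). With no filter on low counts as well, they were 1.74 (adjusted p = 0.213) and 2.22 (adjusted p = 0.227), by the same test. The summed reads, 2545 against 631 and 2545 against 459, gave ratios of 4.50 (4.12 to 4.92) and 5.35 (4.84 to 5.92).

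Markers of the subpallium and striatum, where Isl1 is normally made, were set beside it. The 12 markers, a list that does not hold Isl1, summed to 83.8 to 112 RPKM in WT vehicle, 151 to 159 RPKM in dcKO vehicle 1, 3 and 4, 74.7 RPKM in vehicle 2 and 130 to 180 RPKM in WNTi. None of the 12 had an adjusted p under 0.05 by edgeR's quasi-likelihood test, 5 were higher at an unadjusted p under 0.01 in WNTi against dcKO vehicle and 7 in WNTi against WT vehicle, 0 lower in either. Their medians were 0.58 and 0.90, and the smallest p in the second comparison were those of Drd2, a dopamine receptor of striatal neurons (log2 fold change 1.72, adjusted p = 0.0771), Ebf1 (1.82, 0.0809) and Dlx6 (1.30, 0.0826). The part of the amount of ventral tissue in the Isl1 values was not tested. In the untreated libraries Isl1 had 7.35, 9.97, 2.45 and 2.49 CPM in C and 0.420, 13.3 and 6.62 CPM in M 2, M 3 and M 4, so it varied several-fold between libraries of 1 group. The subpallial and striatal sum was 73.5 to 94.9 RPKM in C, 129 to 136 RPKM in M 3 and M 4 and 63.1 RPKM in M 2.

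**Figure D5:**
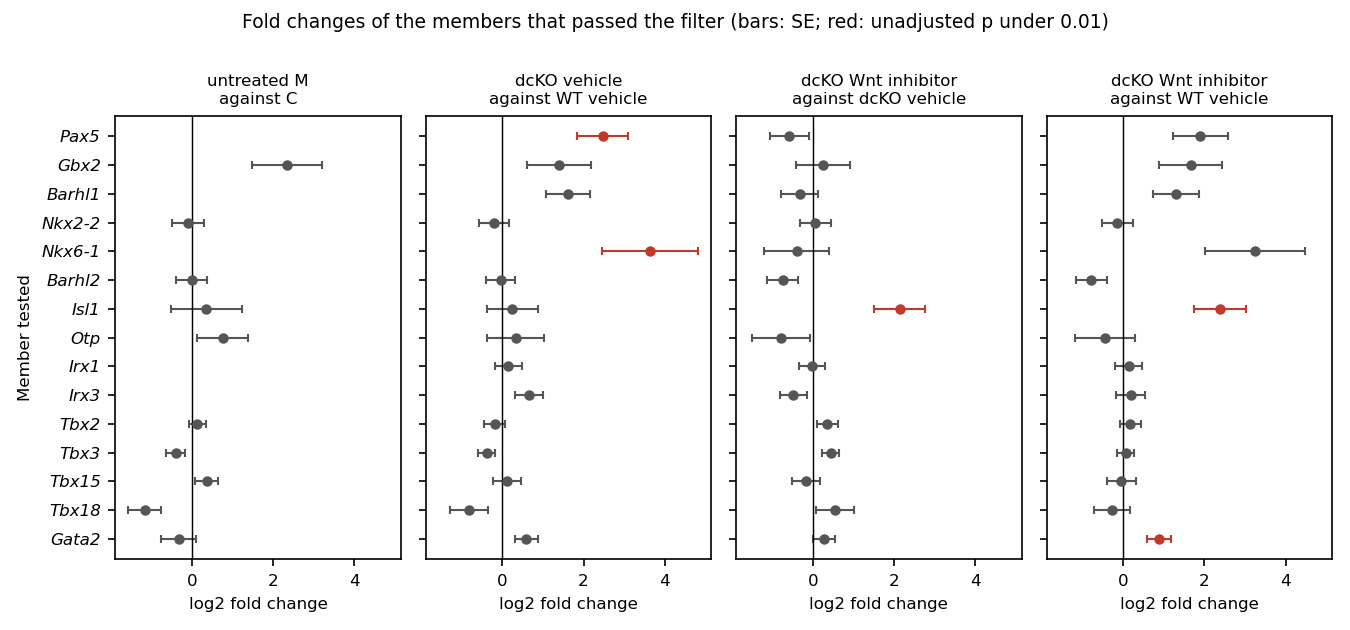
Log2 fold change with SE of each member that passed the filter on low counts (y axis), in the 4 RNA comparisons, with members at an unadjusted p under 0.01 in red. Isl1 lies at 2.14 and 2.39 in the 2 comparisons of WNTi, and Pax5 at 2.47 and Nkx6-1 at 3.63 in dcKO vehicle against WT vehicle.

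Barhl2 and Otp had lower values in WNTi than in dcKO vehicle, in a form that depended on the libraries kept. Barhl2, of amacrine cells, spinal commissural neurons and diencephalon, had 6.22, 2.18, 5.80 and 7.51 CPM in dcKO vehicle and 3.23, 5.45, 1.75 and 2.63 CPM in WNTi, with vehicle 2 and WNTi 2 crossing the other libraries. Its log2 fold change was -0.74 ± 0.37 (adjusted p = 0.348, edgeR). Without vehicle 2 and WNTi 2 it was -1.36 ± 0.26 with an adjusted p of 0.0206, in a fit that called 6.09% of 16547 genes and 3.72% as lower. With no filter it was the 1 member of 36 called, in a fit that called 3.13% of 30804 genes. Otp, of hypothalamic neuroendocrine neurons, had 127, 2, 164 and 127 reads in dcKO vehicle and 37, 93, 60 and 17 in WNTi. Its log2 fold change was -0.78, and -1.72 ± 0.43 with an adjusted p of 0.0417 (edgeR) without the same 2 libraries. Without them, thalamic markers summed to 59.9 to 63.9 RPKM in dcKO vehicle and at most 45.3 RPKM in WNTi, and their part was not tested.

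All WNTi libraries stood above all dcKO vehicle libraries for 5 of 34 members, Isl1, Lmx1b, Six2, Tbx2 and Tbx3, against 3.09% of genes, and below for 0, against 2.81%. Without vehicle 2 and WNTi 2 the same 5 were above, against 13.2% of genes. Then 6 were below, Barhl2, Cdx2, Otp, Pax2, Pax5 and Pax7, against 12.7%. Six2 had 0, 0, 1 and 0 reads in dcKO vehicle and 5, 5, 1 and 11 in WNTi, a ratio of 24.5 (3.97 to 1.01e+03), and 18.1 (2.84 to 758) without vehicle 2 and WNTi 2. WNTi 3 and dcKO vehicle 3 had 1 read each, so the order of this pair rests on the scaling for depth of a single read. Tbx2 had 4.37, 3.56, 4.36 and 4.52 CPM in dcKO vehicle and 4.96, 5.45, 5.83 and 5.26 CPM in WNTi. Tbx3 had 1.04, 1.34, 1.35 and 1.17 CPM against 1.73, 1.49, 1.51 and 1.91 CPM, a log2 fold change of 0.44 (unadjusted p = 0.0539, adjusted p = 0.323, edgeR). These 3 are genes of mesenchyme, kidney or limb. Meningeal fibroblast markers summed to 9.95 to 12.5 RPKM in dcKO vehicle and 8.43 to 28.8 RPKM in WNTi, and choroid plexus markers to 4.24 to 6.45 and 5.56 to 692 RPKM, and neither list's part was tested. Pax2 had 27 reads in dcKO vehicle and 5 in WNTi, a ratio of 0.207 (0.0621 to 0.544), and 0.128 (0.0247 to 0.420) without vehicle 2 and WNTi 2.

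Against WT vehicle, Gata2 and Isl1 were the members with every WNTi library above every WT library (2 of 34, against 2.55% of genes), and 0 were below (2.64%). Without WNTi 2 the same 2 were above, against 6.58% of genes, and 1, Barhl2, was below, against 6.61%. Gata2 had 2.33, 1.32, 1.21 and 1.63 CPM in WNTi, a log2 fold change of 0.88 ± 0.29 (unadjusted p = 0.00872, adjusted p = 0.143, edgeR). Gata2 is also made by blood progenitors, and 7 erythroid markers summed to 328 to 403 RPKM in WNTi and 186 to 328 RPKM in WT vehicle, with WNTi 4 and WT vehicle 3 both at 328 RPKM, and their part in the Gata2 values was not tested. Pax5 had 1, 6, 6 and 12 reads in WNTi and a log2 fold change of 1.90 ± 0.68 (adjusted p = 0.167, edgeR), and Nkx6-1 had 1, 2, 38 and 24 reads and a log2 fold change of 3.24 (adjusted p = 0.184, edgeR). WNTi 1 and, for Nkx6-1, WNTi 2 held these genes at the WT level. Choroid plexus, the epithelium that makes cerebrospinal fluid, held the 1 call among the marker lists in this comparison: Otx2 was 1.64 higher on the log2 scale with an adjusted p of 0.0464 (edgeR).

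The telencephalic, Polycomb and paralogue genes set beside the members had no adjusted call either. Of 40 telencephalic transcription factors, all tested, and of 33 genes for PRC2, PRC1 and H3K27 demethylases, all tested, 0 had an adjusted p under 0.05 in any of the 4 RNA comparisons by edgeR's quasi-likelihood test. Their medians lay between -0.14 and -0.02 for the former and between 0.03 and 0.12 for the latter. Of 32 family paralogues of the members, 9 were tested in the untreated and 11 in the treated libraries. Their medians were 0.10 in M against C, 0.07 in dcKO vehicle against WT vehicle, 0.23 in WNTi against dcKO vehicle and 0.97 in WNTi against WT vehicle, with 0 calls. The smallest p among them in the last comparison were those of Six5 (log2 fold change 0.97, adjusted p = 0.071), Nkx2-3 (2.04, 0.0812) and Nkx2-1, a regulator of the ventral forebrain, lung and thyroid (1.70, 0.0812), by the same test.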

How the data were processed

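RNA of 7 untreated and 12 treated cortices and H3K27me3 chromatin of 8 cortices, all at E17.5, were analysed, without H3K4me2. The deposited RNA values are unnormalized read counts per Ensembl gene, which the authors obtained with STAR (genome build mm10) and featureCounts. The kit does not mark strand, and the gene annotation is not given in the sources used here. The untreated tables end in 5 special lines that hold 0 reads. H3K27me3 peaks were called by the authors library by library, with MACS2 2.1.0.20140616 in its broad mode, duplicate tags removed, the input of the same letter as background and q-values up to 0.1 accepted. The samples hold a single input library for C and a single one for K. Each deposited peak has a fold enrichment over input, a pileup (signal in tags) and a -log10 q-value.

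Groups followed the sample labels and the letters C, M and K in the titles. Nothing says that libraries of a group came from separate litters, so p-values measure the spread between these samples only. Counts were tested with edgeR 4.0.16 in R 4.3.3 (TMM, filterByExpr, robust quasi-likelihood test, Benjamini-Hochberg over all genes tested), the untreated libraries in 1 fit and the 12 treated libraries in another, with no covariate. RPKM used the exon union of GENCODE on GRCm38. A peak was assigned to a gene when at least 1 bp overlapped its body or the 2 kb either side of its start, and 1 value per gene and library, the log2 of the highest fold enrichment (a fold of 1 where no peak), was tested with limma 3.58.1 (trend, robust) over genes with a peak in at least 2 libraries. Ratios of summed reads carry 95% binomial intervals (Clopper-Pearson), with a floor of 3 reads over a group at 0. Depth bounds the precision for the 20 members under 10 reads.

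The members, lists and tests were chosen with earlier results of these data known. Full values were given for members with an adjusted p under 0.05, among the 3 smallest p of a comparison or the 5 highest control RPKM of an experiment, which named 11, with Smarcc1 and Smarcc2. Members with a peak in all 8 libraries, 36, are given by ranges. Other members were named after their values were seen, because their groups did not overlap. Alternatives were DESeq2 1.42.0, DESeq2 size factors, no filter, only the 2 groups in the fit, the replicate block, each library left out, other RPKM limits and, for peaks, a q-value limit of 0.01, covered bases, pileup, an overlap of 500 bp, the 2 kb at the start alone, 3 libraries and centring. Fits without M 2, dcKO vehicle 2 and WNTi 2 in the combinations given, and fits by the share of tags kept, were chosen after seeing the data. On simulated data in which 200 genes had a log2 change of 1, edgeR recovered 155 of them in 15598 genes for M against C, 143 in 16206 for dcKO against WT vehicle, 136 in 16219 for WNTi against dcKO vehicle and 143 in 16215 for WNTi against WT vehicle. With 200 of 11742 genes shifted by 3 SD, limma recovered 100. False calls were 15, 9, 5 and 4 in the RNA comparisons in that order and 4 with limma. The 200 genes were drawn at random from all genes tested, so the recovery does not give the power for the members, many of which had few reads. Tables were joined with Python 3.11.15.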

Additional observations from a re-analysis of the deposited data

Results flagged for a closer look

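In groups of 4 libraries, 62 sets of values were examined for a single library far from the other 3, and 7 met Dixon's critical value. Chance alone marks about 1 in 20 groups. In dcKO vehicle, library 2 held Smarcc1 at 242 CPM, with the lowest at 133 CPM, and Smarcc2 at 692 CPM, with the lowest at 425 CPM. The share of members at 1 RPKM or more was 0% in dcKO vehicle 2 and 10% in the other dcKO vehicle libraries, and it was 10% in 1 WNTi library and 7.5% in the other 3. Tbx18 stood at 1.57 CPM in dcKO vehicle 3, with the lowest at 0.793 CPM. For H3K27me3, Tbx2 had a highest fold enrichment of 11.95 in C 1 against 6.19 in the lowest C library, and 36 members had a peak in K 2 against 40 in the other K libraries.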

How the results depend on the processing

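Over the 40 members and the values printed, 166 group-level values stayed on their side and 17 moved. Of the values of single genes, 326 were unchanged in direction and side, 32 counts moved, 16 passed the threshold and 4 changed sign. The signs were followed for the 3 members with the smallest p in each comparison, and for Smarcc1 and Smarcc2. Values outside this set also changed sign. Over the alternatives the log2 fold change of Isl1 in M against C ran from -0.52 to 0.86. That of Nkx6-1 in WNTi against dcKO vehicle ran from -1.27 to 0.35. Leaving out 1 library at a time gave 0 to 1 members called in M against C and 0 to 1 in dcKO vehicle against WT vehicle, with 1 without M 2 and 1 without vehicle 2. The median of the tested members then ran from -0.28 to 0.25 in M against C, from -0.041 (without dcKO vehicle 3) to 0.43 in dcKO vehicle against WT vehicle, and from -0.18 to 0.25 (without dcKO vehicle 3) in WNTi against dcKO vehicle. With no filter on low counts, 6 members were called without M 2 (median 0.81), all higher, where 3.97% of all genes were called higher, 1 without dcKO vehicle 2 (1.91% of genes) and 1 in WNTi against dcKO vehicle without vehicle 2 and WNTi 2 (3.13% of genes), where the filtered fit called 2 (6.09%). DESeq2 called 2 members in WNTi against WT vehicle. Over all genes edgeR called 1, 1, 9 and 16 in the 4 RNA comparisons and DESeq2 553, 118, 330 and 789, and edgeR called 1994 without M 2 and 562 in dcKO vehicle against WT vehicle without vehicle 2. At 0.5 RPKM the shares were 8.125% in C, 8.33% in M, 11.25% in WT vehicle, 10.625% in dcKO vehicle and 12.5% in WNTi, and at 2 RPKM 1.875% in C, 2.5% in M, 3.125% in WT vehicle, 4.375% in dcKO vehicle and 3.125% in WNTi. For H3K27me3, Gata2 (-0.49) and Tbx2 (-0.22) changed sign with covered bases, and Hand2 without K 2 (0.17, range -0.88 to 0.17) and in the libraries that kept over 30% of tags (0.21). The member median was 0.07 to 0.39 with 1 library left out. The causes were not tested.

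Same-numbered libraries did not deviate together in every pair: the correlations were -0.31 to -0.03 in the untreated, -0.18 to 0.40 in the treated and -0.42 to 0.46 in the H3K27me3 libraries, so the numbers were not taken as a pairing. With the replicate block 0 members were called in any of the 5 comparisons, and the medians were 0.12, 0.27, -0.02 and 0.20 for RNA in the order above and 0.23 for H3K27me3.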
